A study of Mus musculus with 12 samples.

Results

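The Tdpoz gene cluster of mouse chromosome 3 was examined in H3K9me3 ChIP-seq of liver from mice with and without hepatocyte Dio2. It was taken as 8 genes (Tdpoz1, Tdpoz2, Tdpoz3, Tdpoz4, Tdpoz5, Gm5773, Gm9113 and Gm37430) and as every peak in the surrounding 1000 kb, from 93300001 to 94300000 of mm10. Across the 6 peak lists called over input, 964 of 1667636 listed peaks lay in this interval or carried the name of a member. The cluster was selected on measured values: at P1 and at P5 the lists of Alb-D2KO over control covered more bases here than in other windows of the genome. The neonatal excess in Alb-D2KO is therefore part of the selection, and it is described below without a test.

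Dio2 encodes the type 2 deiodinase, which converts thyroxine to the active thyroid hormone T3. Alb-D2KO mice carry floxed Dio2 and a Cre driven by the albumin promoter, which acts in hepatocytes and leaves the other cells of the liver with Dio2. Control mice carried the Cre alone. The strain is C57BL/6 in the labels and C57BL/6J in the study's methods. Livers were taken at postnatal day 1 (P1), at postnatal day 5 (P5) and in adults, with 1 H3K9me3 library and 1 input library for each genotype and age. Neonatal samples were pools of 3 livers, while adult livers were processed singly. For P1 the methods describe 2 pools per genotype, so how many livers a P1 list rests on is not known. With 1 library per group there was no replicate check and no test between genotypes, so a difference below is between 2 libraries and cannot be told apart from a difference between pools or preparations. Whole livers were used, so that a change in the share of a cell type and a change within cells cannot be told apart.

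Peaks with −log10 p above 2 covered 62.4 Mb of the genome in Alb-D2KO against 59.96 Mb in control at P1, 58.1 Mb against 56.5 Mb at P5, and 101 to 104 Mb in the adult lists. Alb-D2KO P1 stood apart on chromosome Y, where the listed share relative to the autosomes was 0.722, against 0.0775 to 0.414 in the other lists. At P5 these shares were closer, 0.0775 in control against 0.102 in Alb-D2KO, and the share was again higher in Alb-D2KO. The part of the Y difference in the values over the cluster was not tested. None of 6 hepatocyte genes and none of 5 erythroid genes had a peak above this level in any list. Such peaks covered only 0.989% to 2.35% of protein-coding gene length, so their absence says little about the tissue. Peaks of any strength lay on 2 hepatocyte genes in Alb-D2KO P1, and on 1 in control P1 and in each P5 list. Among erythroid genes they lay on 1 in Alb-D2KO P5 and 1 in control adult. The tissue label could not be checked, since the lists hold no expression.

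H3K9me3, the trimethylation of lysine 9 of histone H3, marks constitutive heterochromatin and is laid over repeats, gene clusters with many similar copies and genes kept silent in differentiated cells. Tdpoz genes encode proteins with a TRAF domain and a POZ domain, related to Spop, an adaptor that brings substrates to a cullin ubiquitin ligase. They are known from the oocyte and the cleavage-stage embryo and are not part of the hepatocyte program. Spopfm genes, in the same array, are close relatives.

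The 8 members lay between 93651542 and 93961314, in 340 kb referred to here as the member block (93640001 to 93980000). From left to right these were Tdpoz2, Tdpoz1, Gm5773, Tdpoz4, Tdpoz3, Gm37430, Gm9113 and Tdpoz5. Of these, 6 were annotated as protein-coding, each with its coding sequence in 1 exon, and Gm9113 and Gm37430 as unprocessed pseudogenes. Further copies stood in the block and to its right. Of these Gm9125 and Gm10697 are Tdpoz9 and Tdpoz7 in RefSeq, and Gm10696, Gm5286 and Gm4778 are Spopfm2, Spopfm3 and Spopfm1. The left flank of 340 kb held genes of the cornified skin layer, Hrnr, Rptn, Tchh and Tchhl1, and S100a10 and S100a11 of the S100 protein family.

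How alike the copies are decides where a read can be placed, so the first 60 coding bases of the 6 protein-coding members are shown, read 5′ to 3′ on each gene's own strand from GRCm38 (the mm10 assembly). Capitals mark bases that differ from Tdpoz4 in the best alignment. That alignment allows gaps, and a Tdpoz4 base absent from a copy carries no mark. Tdpoz4 is at chr3:93796398-93796457 on the plus strand, Tdpoz3 at chr3:93826020-93826079 (plus), Gm5773 at chr3:93773023-93773082 (plus), Tdpoz1 at chr3:93671416-93671475 (minus), Tdpoz2 at chr3:93652604-93652663 (minus) and Tdpoz5 at chr3:93961255-93961314 (minus).
Tdpoz4: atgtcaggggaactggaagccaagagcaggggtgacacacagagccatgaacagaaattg
Tdpoz3: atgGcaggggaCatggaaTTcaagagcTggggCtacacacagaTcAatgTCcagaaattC
Gm5773: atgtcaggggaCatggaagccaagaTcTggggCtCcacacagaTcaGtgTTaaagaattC
Tdpoz1: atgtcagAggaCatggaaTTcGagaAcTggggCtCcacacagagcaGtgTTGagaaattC
Tdpoz2: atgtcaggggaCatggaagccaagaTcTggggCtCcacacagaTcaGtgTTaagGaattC
Tdpoz5: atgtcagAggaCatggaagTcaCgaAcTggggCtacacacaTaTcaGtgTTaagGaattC
Over the whole coding sequence Tdpoz4 was 79.3% identical to Gm5773, 78.5% to Tdpoz2, 78.2% to Tdpoz3, 78.1% to Tdpoz1 and 74.1% to Tdpoz5. Tdpoz4 had no close copy among the members, and its 1113-bp gene body had the smallest share of repeated sequence: 11.1% of its positions began a 100-base stretch with another exact copy in the genome. That share was 18.7% in Tdpoz1, 20.2% in Tdpoz2, 38.0% in Gm5773, 42.8% in Gm9113, 43.6% in Tdpoz3, 44.4% in Gm37430 and 97.3% in Tdpoz5.

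A pair of copies shows the problem. Gm5773 and Tdpoz2 were 96.98% identical over their coding sequences, yet they lay on opposite strands and on opposite sides of 93740001. That position was the left edge of the difference only among the stronger peaks used for the main values below. With every listed peak Alb-D2KO minus control at P1 was −48 bp over Gm5773 and 474 bp over Tdpoz2. At P5 it was 158 bp and 318 bp. The first 150 coding bases of Gm5773 and Tdpoz2, at chr3:93773023-93773172 (plus) and chr3:93652514-93652663 (minus), differ at 3 bases, in capitals.
Gm5773: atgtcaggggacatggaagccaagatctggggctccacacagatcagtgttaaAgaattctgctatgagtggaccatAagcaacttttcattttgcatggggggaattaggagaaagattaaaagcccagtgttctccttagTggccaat
Tdpoz2: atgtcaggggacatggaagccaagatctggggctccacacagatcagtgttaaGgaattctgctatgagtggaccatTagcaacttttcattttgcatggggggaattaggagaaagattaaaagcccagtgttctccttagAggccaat
Tdpoz5 could not be separated from Gm10697 by its coding sequence at all, as the pair was 100% identical over 1020 bases. Peaks over Tdpoz5 therefore rest on reads that could come from either copy. How reads with several equally good positions were placed is not given in the sources used here.

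In the lists, H3K9me3 over the cluster was broad and weak. Every peak of the interval had a fold enrichment over input of at most 2.52, the highest −log10 p was 2.91, and no peak of any list had a q-value below 0.05. A limit of −log10 p above 2 was used for the main values, and covered length under peaks above this limit is called covered length unless said otherwise. For a broad peak the −log10 p is an average over its whole width, so that the limit acts on entire regions. The weakest peaks kept had −log10 p of 2.00 to 2.03 and the strongest left out 1.97 to 2.00.

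Covered length in the interval was 189 kb in Alb-D2KO P1, 24.7 kb in control P1, 154 kb in Alb-D2KO P5, 42.7 kb in control P5, 63.3 kb in Alb-D2KO adult and 75.4 kb in control adult. Both neonatal Alb-D2KO libraries were above the other 4, and among these both adult libraries were above both neonatal controls. Alb-D2KO exceeded control by 165 kb at P1 and by 112 kb at P5, and the adult difference was −12.1 kb. Among 2709 windows of 1000 kb over the genome, the interval ranked 3 at P1 and 8 at P5 for this difference, and 2299 in the adult. The number of listed peaks went the other way, with 173 in control against 142 in Alb-D2KO at P1, and 162 against 151 at P5. Peaks above the limit were more numerous in Alb-D2KO, 27 against 13 at P1 and 20 against 4 at P5. Without the limit, fewer and wider peaks covered more of the cluster in neonatal Alb-D2KO. These held 452 kb against 292 kb in control at P1, and 413 kb against 339 kb at P5. Peaks at least 20 kb wide numbered 4 in Alb-D2KO P1, 4 in Alb-D2KO P5 and 1 in Alb-D2KO adult. Every control list had 0 in this interval. Over the genome, peaks this wide and above the limit were present in control as well. They numbered 505 in Alb-D2KO P1 and 461 in control P1, or 2.83% and 2.41% of peaks above the limit. The P5 lists held 471 in Alb-D2KO and 469 in control, or 3.06% and 3.29%. Adult lists held 530 in Alb-D2KO and 504 in control.

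**Figure D1:**
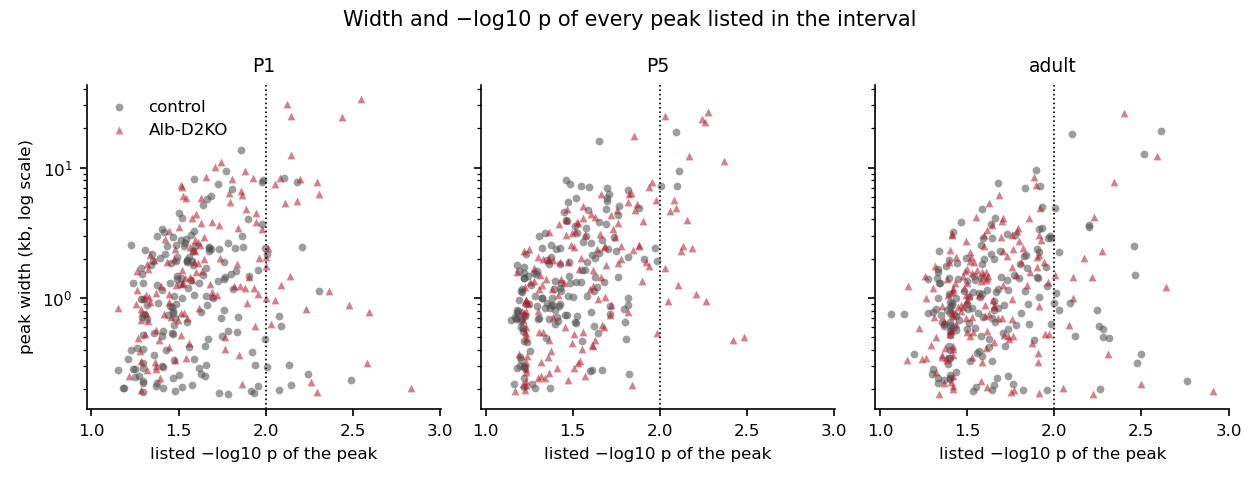
Width (kb, log scale) against listed −log10 p of every peak of the interval at P1, P5 and adult, with Alb-D2KO as red triangles, control as grey circles and a dotted line at the limit of 2. At P1 and P5 the peaks of 20 kb or more are all Alb-D2KO peaks right of the line, and no peak reaches 3.

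Above the limit the difference lay mostly in the member block. There the covered length was 145 kb in Alb-D2KO P1, 12.2 kb in control P1, 106 kb in Alb-D2KO P5, 14.4 kb in control P5, 18.9 kb in Alb-D2KO adult and 26.96 kb in control adult. The right flank of 320 kb held 43.6 kb, 12.55 kb, 47.9 kb, 28.3 kb, 43.4 kb and 48.2 kb in the same order. Here Alb-D2KO P1, Alb-D2KO P5 and both adult libraries lay at similar levels, and control P1 was the lowest. The left flank had no more than 1.22 kb in any list. In the 1000 kb before the interval the difference was −0.543 kb at P1, 1.81 kb at P5 and, for adults, −5.96 kb, and in the 1000 kb after it by no more than 0.957 kb at any age. Above the limit, the excess thus began within the array. Without the limit it was spread more evenly. Listed peaks then covered 241 kb in Alb-D2KO P1 and 157 kb in control P1 in the member block, 195 kb and 128 kb in the right flank, and 16.3 kb and 6.88 kb in the left flank. These are ratios of 1.54, 1.52 and 2.37. At P5 the ratios were 1.29 in the member block, 1.13 in the right flank and 1.33 in the left flank, where Alb-D2KO had 13.6 kb and control 10.2 kb. Listed coverage of the left flank was low and higher in Alb-D2KO at both neonatal ages.

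Bins of 20 kb gave the map. A bin was called when its covered length differed by at least 5 kb between genotypes. At P1, 11 of the 50 bins had more in Alb-D2KO, against 1.27% of all 136267 bins of the genome, and 0 had less, against 1.07%. At P5, 7 bins had more, against 1.14%, and 1 had less, against 1.07%. All 7 bins with more at P5 were also called at P1, a combination found in 0.154% of all bins. In the adult 0 bins had more, against 1.29%, and 1 had less, against 1.42%. Since the interval was chosen for its neonatal excess, nothing is read from the neonatal shares.

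**Figure D2:**
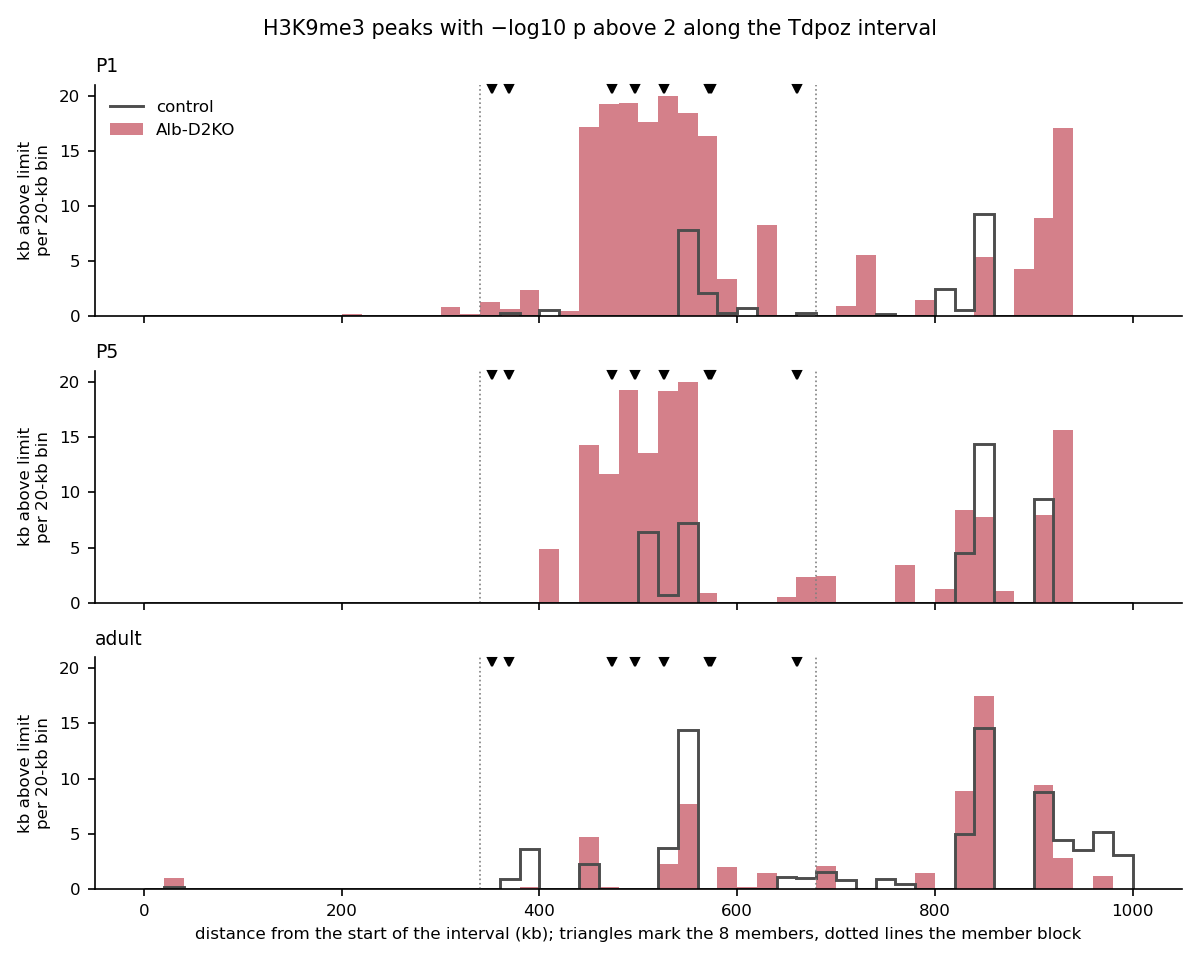
Covered length (kb, peaks with −log10 p above 2) in each 20-kb bin along the interval, by distance from its start, in Alb-D2KO (red bars) and control (grey line) at P1, P5 and adult. In Alb-D2KO P1, 7 adjoining bins hold 16.4 to 20 kb each around Gm5773, Tdpoz4, Tdpoz3, Gm37430 and Gm9113, whereas the bins of Tdpoz2, Tdpoz1 and Tdpoz5 hold little in any list.

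Of the 11 bins called at P1, 7 adjoined each other from 93740001 to 93880000. In this run of 140 kb covered length was 128 kb in Alb-D2KO P1 and 9.96 kb in control P1, which made 71.7% of the difference over the interval. At P5 the run was shorter by its last bin and ended at 93860000. Over the same 140 kb covered length at P5 was 14.4 kb in control against 98.8 kb in Alb-D2KO, or 75.6% of the difference over the interval. In adults the control had 20.3 kb and the Alb-D2KO library 15.0 kb. The neonatal Alb-D2KO libraries thus stood above the other 4, which lay between 9.96 kb and 20.3 kb. This concentration depended on the limit. Without it the run held 42.1 kb of excess at P1 and 25.8 kb at P5, or 26.3% and 34.8% of the difference over the interval, and the 10 bins of the block outside it held 41.8 kb and 25.4 kb. The run held 5 of the 8 members.

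At P1 the 3 bins with the largest differences each held a member, with bins that held none close behind. In the bin of Tdpoz3 (93820001 to 93840000) covered length was 20 kb in Alb-D2KO P1, 0 kb in control P1, 19.2 kb in Alb-D2KO P5, 0.715 kb in control P5, 2.28 kb in Alb-D2KO adult and 3.71 kb in control adult. In the bin of Tdpoz4 (93780001 to 93800000) it was 19.3 kb in Alb-D2KO P1 and 19.2 kb in Alb-D2KO P5, and 0 kb in the other 4 lists. In the bin of Gm5773 (93760001 to 93780000) it was 19.2 kb in Alb-D2KO P1 and 11.6 kb in Alb-D2KO P5, with 0.218 kb in Alb-D2KO adult and 0 kb in every control list. These were the 3 largest differences of the interval at P1. The bins from 93800001 and 93740001, with no annotated gene, followed at 17.6 kb and 17.2 kb. With every listed peak the largest P1 differences were 10.9 kb in the bin of Tdpoz4 and 10.2 kb in that from 94120001, with no member. The bin of Tdpoz3 then had 5.02 kb. At P5 the largest were the bins of Tdpoz4 and Tdpoz3 and a bin of the right flank from 94220001 to 94240000, where control had 0 kb and Alb-D2KO 15.6 kb. That flank bin had 17.02 kb in Alb-D2KO P1 and 0 kb in control P1, with 2.81 kb and 4.41 kb in the adult libraries, and was the only bin outside the run called at both neonatal ages.

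The other bins called at P1 were smaller. They were the bin from 93920001 in the member block, 8.30 kb above control, and those from 94020001 and 94200001 in the right flank, 5.59 kb and 8.94 kb above control. None of these 3 held a member or was called at P5. The largest deficits of Alb-D2KO were −3.90 kb, −2.48 kb and −0.725 kb at P1, in the bins from 94140001, 94100001 and 93900001. At P5 the bin from 94140001 had a difference of −6.59 kb and the bin from 94200001 one of −1.53 kb, and no other bin was lower in Alb-D2KO. In the adult the largest deficits were −6.62 kb, −3.99 kb and −3.52 kb, in the bins from 93840001, 94260001 and 94240001, and the largest excesses were 3.91 kb, 2.90 kb and 2.47 kb in the bins from 94120001, 94140001 and 93740001. Within the run, the bin from 93840001 had therefore changed sign, with 7.74 kb in Alb-D2KO adult and 14.4 kb in control adult.

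The run was also occupied in control neonates, but by narrower and weaker peaks. With every listed peak counted, with no limit, peaks covered 91.5% of the 140 kb in Alb-D2KO P1, 61.5% in control P1, 89.0% in Alb-D2KO P5, 70.6% in control P5, 39.7% in Alb-D2KO adult and 38.6% in control adult. The neonatal libraries of both genotypes were thus above both adult libraries, and the gap between genotypes was much smaller than under the limit. At P1 the run held 9 peaks in Alb-D2KO, all above the limit, and 37 in control, 2 of them above the limit. At P5 it held 12 peaks in Alb-D2KO, 8 of them above the limit, and 28 in control, 2 of them above the limit. Median peak width in the run was 8131 bp in Alb-D2KO P1 and 1686 bp in control P1, and 5648 bp and 2243.5 bp at P5. The fold enrichment averaged over listed bases of the run was 2.16 in Alb-D2KO P1, 1.92 in control P1, 2.08 in Alb-D2KO P5 and 1.89 in control P5, and 1.95 and 1.96 in the adult libraries. Listed peaks of the run were thus fewer, wider and of higher fold in neonatal Alb-D2KO. The fold leaves out bases under no listed peak, and width and fold were not compared on a common scale.

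**Figure D3:**
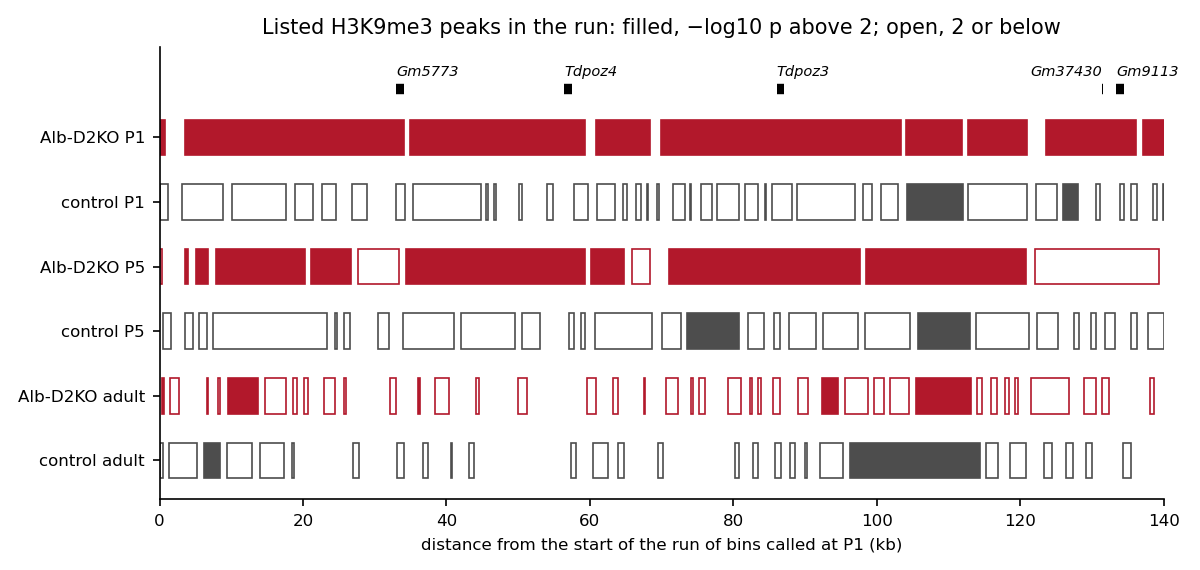
Every listed peak of the 140-kb run in the 6 lists, by distance from the start of the run, filled where −log10 p is above 2 and open where it is 2 or below; black marks above show the 5 members. In Alb-D2KO wide filled peaks span Tdpoz4 and Tdpoz3 at P1 and P5, and at P1 another ends inside Gm5773. In neonatal control most of the same stretch is under open peaks. The adult lists hold 39 peaks in Alb-D2KO and 28 in control, with median widths of 880 bp and 898.5 bp. The widest adult peak is a control peak of 18074 bp.

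The widest peaks named the same copies. In Alb-D2KO P1 the widest was chr3:93809904-93843375, 33472 bp at −log10 p 2.55, over Tdpoz3, followed by chr3:93743526-93774094, 30569 bp at 2.12, which ended inside Gm5773. The next was chr3:94211940-94237017 in the right flank, 25078 bp at 2.14. In Alb-D2KO P5 they were chr3:93811060-93837635, 26576 bp at 2.27, over Tdpoz3, chr3:93774319-93799246, 24928 bp at 2.03, over Tdpoz4, and chr3:94212097-94235603, 23507 bp at 2.24. In control P1 the widest above the limit was 8303 bp and in control P5 18870 bp, and the 3 widest of each control list overlapped no gene. Whether a wide Alb-D2KO peak was kept turned on small margins, as for the Tdpoz4 peak at P5 with its −log10 p of 2.03.

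Some stretches were above the limit whatever the genotype and age. An intergenic stretch of 9016 bp at chr3:93844167-93853182, inside the run and to the right of Tdpoz3, was covered over 80.2% to 100% of its length in all 6 lists. A stretch of 12413 bp at chr3:94135528-94147940 was covered over 43.3% to 100% of its length in all 6. One of 10869 bp at chr3:94211940-94222808 was covered in 5 lists, over 72.5% to 100%, and over 0% in control P1. In all, 11.5 kb of the interval was above the limit in every list. In both neonatal Alb-D2KO lists 125 kb was above the limit, of which 76.5 kb, or 61.3%, was so in no other list. The neonatal Alb-D2KO peaks above the limit lay on both sides of the shared stretch inside the run. To its left they lay over Tdpoz4 and Tdpoz3 at both ages and over Gm5773 at P1 only. To its right they lay over the pseudogenes at P1 only.

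Among the members, Tdpoz4 alone had more covered in Alb-D2KO at both neonatal ages with and without the limit. Its gene body was covered over 100% in Alb-D2KO P1 and Alb-D2KO P5 and over 0% in the other 4 lists. Counting every listed peak it was 100% in both neonatal Alb-D2KO lists, 0% in control P1, 34.7% in control P5, 0% in Alb-D2KO adult and 12.9% in control adult. At P5 its covered length above the limit rested on a peak with −log10 p of 2.03.

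Tdpoz3 was likewise covered over 100% in Alb-D2KO P1 and Alb-D2KO P5 and 0% in the other 4 lists. Without the limit, however, it was covered over 100% in control P1 as well, by a peak of 2808 bp at −log10 p 1.55, where the Alb-D2KO P1 peak had 2.55. At P5 it was 49.5% covered in control, and among adults 59.6% in control against 37.7% in Alb-D2KO. At P1 the genotypes therefore differed over Tdpoz3 in the width and strength of the peak and not in its presence.

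Gm5773, the near-copy of Tdpoz2, was covered over 95.8% in Alb-D2KO P1 and 0% in the other 5 lists. At P5 the Alb-D2KO peak that reached it had −log10 p 1.98 and missed the limit. With every listed peak Gm5773 was 95.8% covered in Alb-D2KO P1, 100% in control P1, 31.1% in Alb-D2KO P5, 17.3% in control P5, 0% in Alb-D2KO adult and 78.5% in control adult. Control P1 was thus slightly above Alb-D2KO P1 on this count, with a difference of −48 bp.

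The pseudogenes Gm37430 and Gm9113 lay side by side under the same peaks and are not separate observations. Both were covered over 100% in Alb-D2KO P1, by a peak of 12597 bp at −log10 p 2.15, and over 0% in the other 5 lists. In Alb-D2KO P5 a peak of 17378 bp at −log10 p 1.85 covered both in full but missed the limit. Counting every listed peak, Gm9113 was 43.1% covered in control P1 and 0% in control P5, and Gm37430 was 0% covered in both neonatal control lists.

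Tdpoz1, Tdpoz2 and Tdpoz5 did not carry the neonatal difference above the limit. None of them had covered length in any neonatal list, and in the adult Tdpoz1 alone was covered, over 13.2% in control. Under all listed peaks Tdpoz2 was 41.4% covered in Alb-D2KO P1 and 27.8% in Alb-D2KO P5, and 0% in the other 4 lists. Tdpoz1 was 10.7% and 13.0% covered in the neonatal Alb-D2KO lists and 4.24% and 9.57% in the neonatal controls. Tdpoz5 was 43.8% covered in Alb-D2KO P5 and 0% in the other 5 lists. Listed coverage was thus higher in Alb-D2KO for all 3 genes at P5 and for Tdpoz1 and Tdpoz2 at P1, at −log10 p of 1.25 to 1.57 in Alb-D2KO. Over Tdpoz1 at P1 the control peak was the stronger, with −log10 p of 1.84 and a fold of 2.01, against 1.52 and 1.78 in Alb-D2KO.

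**Figure D4:**
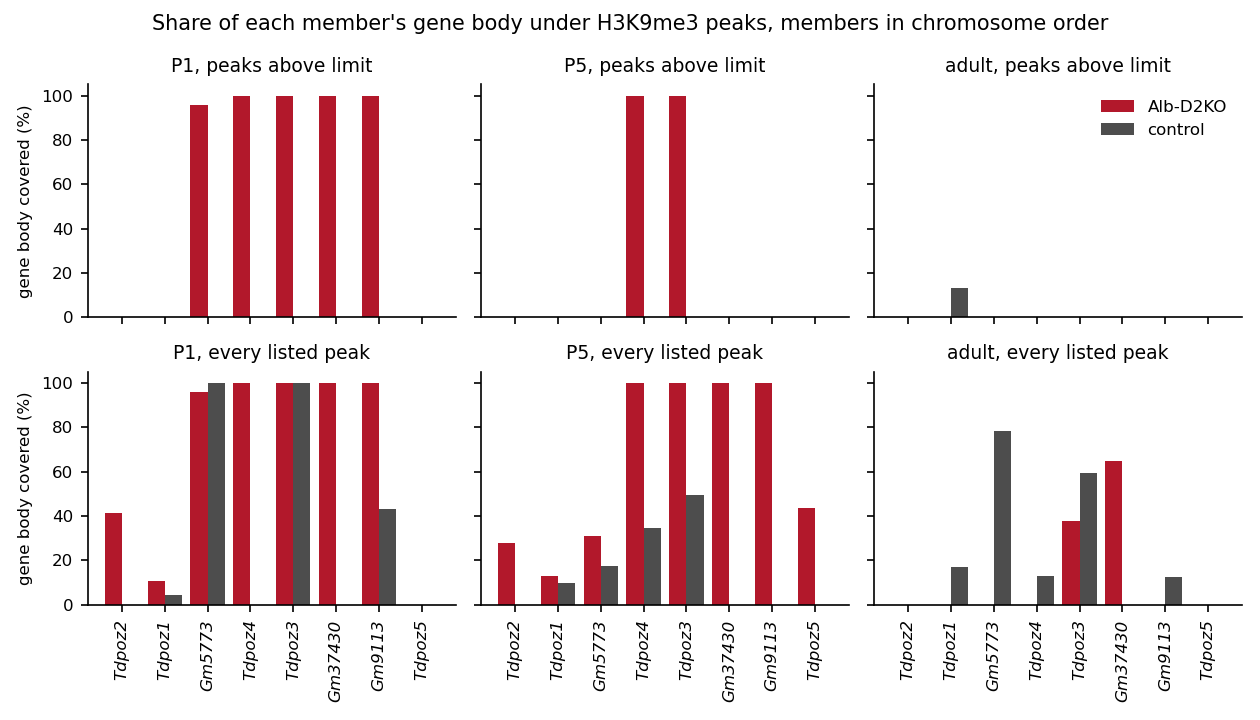
Share of each gene body (%) under peaks with −log10 p above 2 (top) and under every listed peak (bottom) in Alb-D2KO (red) and control (grey), with members in chromosome order. Above the limit 5 members at P1 and 2 at P5 are covered in Alb-D2KO and none in control; with every listed peak control P1 also covers Gm5773 and Tdpoz3 in full.

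Counted over the 8 members, 5 had more covered length in Alb-D2KO at P1, against 5.91% of 24580 protein-coding genes and unprocessed pseudogenes, and 2 at P5, against 5.37%. In the adult 1 had less, against 9.17%. With every listed peak 5 members had more in Alb-D2KO at P1, against 19.5%, and 8 at P5, against 20.4%, while 5 had less in the adult, against 19.9%. Median gene-body coverage of the members above the limit was 97.9% in Alb-D2KO P1 and 0% in each of the other 5 lists. Members under 1 peak are not independent of each other, and the selection used this contrast, so the neonatal counts are descriptions only. Of the peaks the lists themselves assigned to a member by name, 4 of 7 were above the limit in Alb-D2KO P1 and 2 of 10 in Alb-D2KO P5. In the neonatal controls these were 0 of 7 and 0 of 5, and in the adult 0 of 6 in Alb-D2KO and 2 of 7 in control. Over the genome 17832 of 273767 peaks were above the limit in Alb-D2KO P1 and 19116 of 280580 in control P1. At P5 these were 15376 of 268693 and 14238 of 265920, and in the adult 35326 of 286124 and 36295 of 292552.

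The other copies of the array gave mixed differences. Gm9117, which was 98.4% identical to Tdpoz1 over its coding sequence, was covered over 11.2% in Alb-D2KO P1 and 7.21% in Alb-D2KO P5 and 0% in the other 4 lists. Gm5286 (Spopfm3) was covered over 46.2% in Alb-D2KO P1, and Gm10696 (Spopfm2) over 14.8% in Alb-D2KO P5, each with 0% in the other 5 lists. Gm9125, Gm10697, Gm37596 and Gm4778 had no covered length in any list. Among pseudogenes outside the naming rule, singled out after their values were seen, Gm37085 (196 bp, right flank) was covered over 100% in Alb-D2KO P1 and 0% in the other 5 lists. Gm9116 and Gm5543 went the other way, covered over 27.4% and 19.6% in control P1 and 0% in the other 5 lists. Of 21 genes of the right flank, all listed peaks counted, 14 had more and 3 less covered in Alb-D2KO at P1. The P5 lists gave 12 with more and 3 with less, and the adult lists 7 with more and 6 with less. Among the 24580 protein-coding genes and unprocessed pseudogenes of the genome, 19.5% had more and 20.4% less on this count at P1. For P5 the shares with more and with less were 20.4% and 20.9%, while adult lists gave 17.6% and 19.9%. In the left flank Rptn, Tchh, Tchhl1, S100a10 and S100a11 had no covered length in any list, and Hrnr, which encodes the cornified-layer protein hornerin, had it in the adult lists, over 2.94% in Alb-D2KO and 1.68% in control.

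Repeated sequence was measured because reads from exact copies cannot be placed apart. The share of positions that begin a 100-base stretch with another exact copy was 5.32% in the left flank, 40.7% in the member block and 43.9% in the right flank. The 11 bins called at P1 had a median share of 17.2% (11.4% to 74.2%) and the other 39 bins 23.8% (0% to 82.3%), and at P5 the medians were 14.1% in 7 called bins and 28.5% in the other 43. In the run the median was 15.6%, while the 10 bins of the block outside it had a median of 61.6%. Covered length in these 10 bins was 16.5 kb in Alb-D2KO P1 and 2.20 kb in control P1, and 7.66 kb and 0 kb at P5. Listed peaks of any strength held 112 kb of these bins in Alb-D2KO P1 against 70.6 kb, and 106 kb in Alb-D2KO P5 against 80.7 kb. When the positions that begin such a stretch were left out, the difference over the interval was 124 kb at P1 and 91.3 kb at P5. Later bases of a copied stretch were kept unless they also began one. The part of read placement in these values was not tested.

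**Figure D5:**
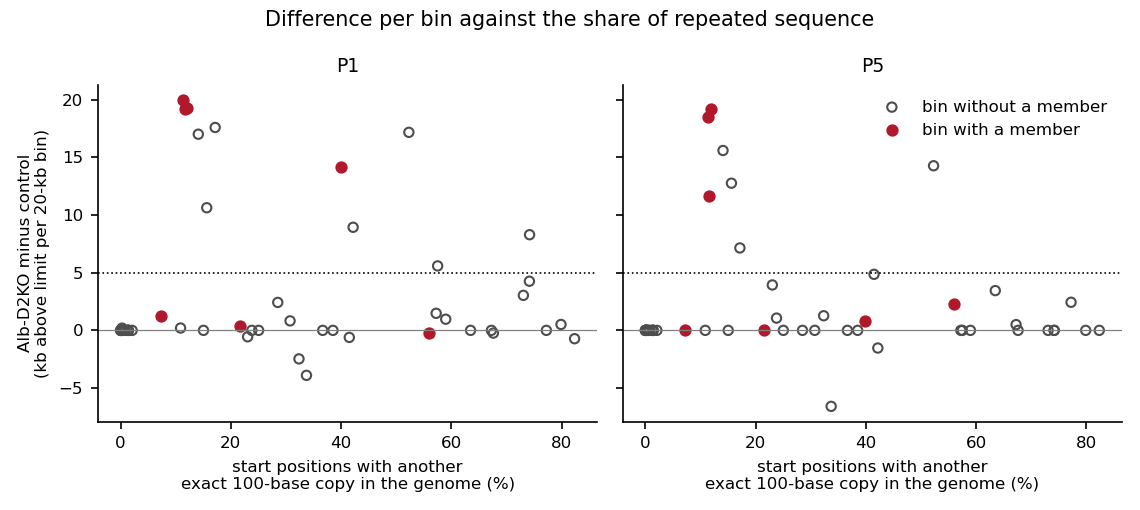
Difference between Alb-D2KO and control in covered length (kb per 20-kb bin) at P1 and P5 against the share of positions (%) with another exact 100-base copy in the genome, with bins that hold a member in red and a dotted line at 5 kb. The 6 largest differences at P1 sit at shares of 11.4% to 17.2%, apart from 1 bin at 52.3%, and bins above 60% reach at most 8.30 kb at P1 and 3.45 kb at P5.

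Between ages, coverage of the run in Alb-D2KO was lower at P5 than at P1 and lowest in adults. From P1 to P5, 1 of the 50 bins had at least 5 kb more in Alb-D2KO, against 1.21% of all bins, and 4 had at least 5 kb less, against 1.38%. The bins with less included those of Gm5773, with 19.2 kb at P1 and 11.6 kb at P5, and of Gm37430 and Gm9113, with 16.4 kb and 0.849 kb. In control 3 bins had more at P5 than at P1, against 1.16%, and 0 had less, against 1.18%. With every listed peak, 17 bins had at least 5 kb more in Alb-D2KO than in control at P1, against 1.28%, and 6 at P5, against 1.24%, while in the adult there was no bin with a difference of that size in either direction. The limit mattered more at P5, where the difference over the interval was 112 kb with it and 74.1 kb without it, than at P1, where these were 165 kb and 160 kb.

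Other gene families with many copies that are known from the early embryo did not share the pattern at both neonatal ages above the limit. The 8 members together were covered over 32.96% of their length in Alb-D2KO P1, 0% in control P1, 16.1% in Alb-D2KO P5, 0% in control P5, 0% in Alb-D2KO adult and 6.70% in control adult. For the 55 Obox genes, homeobox genes of the oocyte and early embryo, these were 81.9%, 60.2%, 56.3%, 56.8%, 32.5% and 18.8%. The 9 Zscan4 genes, which mark the early cleavage stages, had 25.3%, 19.1%, 1.53%, 7.84%, 8.11% and 0%. Above the limit both families were higher in Alb-D2KO than in control at P1 and in the adult, and lower at P5. Without the limit Zscan4 turned at both neonatal ages, to 89.8% in control P1 against 87.2% in Alb-D2KO, and 78.3% in control P5 against 83.7%, while Obox kept its signs. The 18 Pramel and Oog genes had 16.1% and 13.4% at P1 and the 6 Usp17l genes, a family of deubiquitinases, 14.1% and 7.36%. At P5 these were 0% and 0.973% for Pramel and Oog and 0% in both lists for Usp17l. Without the limit the difference at P1 turned to −4.67 points for Pramel and Oog and −2.34 points for Usp17l. Spop had no covered length in any list and its relative Spopl only in control adult, over 5.60%. Over all 21938 protein-coding genes the share was 1.03% in Alb-D2KO P1, 0.989% in control P1, 1.03% in Alb-D2KO P5 and 1.02% in control P5.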

How the data were processed

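H3K9me3 ChIP and input libraries of mouse liver were compared as 6 peak lists, control and Alb-D2KO at P1, P5 and adult. The authors aligned reads with BWA to mm10 in Partek Flow and called broad peaks over each library's own input with MACS2 at p below 0.05. The deposited columns give each peak's length, −log10 p-value and q-value, and a ratio (fold enrichment over input), averaged over broad regions. The authors' 3 lists of Alb-D2KO over control hold their comparison and were not used. The study's methods describe 2 neonatal pools per genotype at P1 and sequencing on different days, and how these entered a list is not given. Read depth is unknown.

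Covered length was summed over merged peaks with −log10 p above 2, per interval, 20-kb bin and GENCODE M21 gene body, in Python 3.11.15. The lists were annotated by the authors with M24. Positions run from the listed start to the listed end less 1. Exact copies of 100-base stretches were sought on both strands of GRCm38 (65 sequences), and coding sequences were read from the same assembly and aligned end to end with edlib. Sums were checked on simulated peaks. Text names all members, protein-coding and Tdpoz or Spopfm genes of the interval, the 3 bins with the largest difference each way, and the families. Members and lists were chosen with earlier results of these data known.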

Additional observations from a re-analysis of the deposited data

Results flagged for a closer look

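The difference between Alb-D2KO and control had opposite signs in neonates and adults. Over the whole interval it was 165 kb at P1 and −12.1 kb in the adult, which are 177 kb apart, and 112 kb at P5, which is 124 kb from the adult value. In the member block the P1 and adult differences (132 kb and −8.10 kb) lay 141 kb apart, and the P5 difference (92.1 kb) lay 100.2 kb from the adult. In the right flank the gaps were 35.9 kb for P1 (31.1 kb and −4.77 kb) and 24.4 kb for P5 (19.6 kb). In the 140-kb run around Tdpoz3 and Tdpoz4 they were 124 kb for P1 (118 kb and −5.37 kb) and 89.8 kb for P5 (84.4 kb). With every listed peak the adult difference of this run was 1.49 kb, so that its sign there rests on the limit. In the 20-kb bin from 93840001, to the right of Tdpoz3, they were 17.3 kb for P1 (10.6 kb and −6.62 kb) and 19.4 kb for P5 (12.8 kb). With 1 library per genotype and age, these differences between ages were not tested.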

How the results depend on the processing

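Results here are lengths and counts with no test. A value was taken as the same within 1.5 times, since covered length has no counting interval. No paired analysis was possible because each group had 1 library and the labels give no replicate numbers, and for the same reason no library could be left out. The direction over the interval held at each age under limits of 1.5 and none, joined peaks and removal of repeated bases. The direction also held at each age for the number of peaks above the limit. It reversed for the number of listed peaks, with Alb-D2KO minus control of −31 at P1 and −11 at P5, and Gm5773 at P1 reversed to −48 bp with every listed peak. At a limit of 3 no peak of the interval was left, so that every length, bin count and member count was 0. Without the positions that begin a copied stretch the adult difference was −6.90 kb and 0 bins were lower at P5. Without a limit the P5 difference was 74.1 kb. Bins with more in Alb-D2KO at P1, P5 and adult numbered 17, 6 and 0 with every listed peak, 17, 12 and 1 at a limit of 1.5, 21, 16 and 3 at 10 kb, 4, 3 and 0 at 50 kb, 14, 12 and 4 for a difference of 2 kb, and 8, 6 and 0 for 10 kb. Shifted bins gave 12, 8 and 0. Bins with less numbered 0, 0 and 0 with every listed peak, at a limit of 1.5, at 50 kb and for a difference of 10 kb, 1, 2 and 4 at 10 kb, 2, 1 and 5 for 2 kb, and 0, 0 and 2 when shifted. Members with more covered in Alb-D2KO numbered 5, 8 and 1 with every listed peak, 5, 7 and 1 at a limit of 1.5, and 6, 3 and 1 with 2 kb added at each end. Members with less numbered 1, 0 and 5, then 0, 0 and 4, and 0, 0 and 2 in the same settings. Joining peaks within 1000 bp moved none of these totals by over 1.5 times.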
